A study of Rattus norvegicus with 36 samples.

Results

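The 16 high salt libraries of rat aorta in the series were divided by the level of Arntl, the gene of the clock activator BMAL1, and compared. An Arntl value below 30 placed a library in the low-Arntl set (8 libraries) and a value of 30 or above in the high-Arntl set (8 libraries), out of 34 libraries analysed in the series. The sets are defined from the measured values and are not groups of the study. The labels give no time of day for tissue collection.

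The samples are total RNA from the thoracic descending aorta of male rats of 3 strains. SS is the salt-sensitive strain, and the 2 congenic strains carry Brown Norway chromosome 2 on the SS background, S2Ba its distal portion and S2Bb a middle segment. The rats started a high salt diet with 4% NaCl or a normal salt diet at 4 to 6 weeks of age and were killed at 12 to 13 weeks. The low-Arntl set holds 4 SS, 1 S2Ba and 3 S2Bb libraries, and the high-Arntl set holds 1 SS, 4 S2Ba and 3 S2Bb libraries. The other 18 libraries, 6 from each strain, are from rats on normal salt and were used only for comparison. From the high salt groups, replicate 3 of SS and replicate 2 of S2Ba were not analysed here. Replicate numbers follow record order and do not pair samples. The labels do not state that samples are separate animals. P-values therefore measure the spread among these libraries alone, which may be technical.

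The circadian clock of each cell is a loop of transcription. BMAL1 pairs with CLOCK or NPAS2 and switches on genes with E-box elements, among them the Per and Cry repressors, the Nr1d1 and Nr1d2 receptors and the output factors Dbp, Tef and Hlf. Nr1d1 and Nr1d2 in turn repress Arntl and Npas2, so that Arntl and Dbp peak at opposite times of day. In arteries the clock runs in smooth muscle and endothelial cells, and rhythms of vascular tone and blood pressure depend on it in mice.

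Values are normalised read counts, that is reads divided by a size factor of the library, so that 1 read is worth between 0.0659 and 0.12 in the series. The high salt libraries held 9882071 to 13483126 reads, with 11667349 to 13483126 in the low-Arntl set and 9882071 to 13004721 in the high-Arntl set. Smooth muscle markers were high in both sets. Myh11, the smooth muscle myosin heavy chain, ran from 8095 to 11233 (median 10317) in low-Arntl libraries and from 8141 to 10366 (median 9125) in high-Arntl libraries, and Acta2, smooth muscle actin, from 4289 to 7638 (median 5402) and from 3874 to 7811 (median 4878) in the same order of sets. Of 20 skeletal and cardiac muscle markers only 6 passed the filter of a mean of 0.5 over the 16 libraries, and of 16 markers of T, B and NK cells only 4 did. In bulk tissue, fewer cells of a type and less RNA per cell cannot be told apart.

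Arntl, which chose the libraries, was spread over a range of 4.83 on the log2 scale. In the low-Arntl libraries it stood at 2.43, 2.83, 4.00, 4.44, 6.77, 11.4, 17.4 and 20.6 (in the order SS replicate 2, S2Bb replicate 6, SS replicate 4, S2Bb replicate 5, SS replicates 5 and 6, S2Ba replicate 4 and S2Bb replicate 4). In the high-Arntl libraries it stood at 40.3, 50.4, 74.3, 75.4, 76.8, 79.9, 80.2 and 82.9 (S2Ba replicates 3 and 1, SS replicate 1, S2Ba replicates 5 and 6, and S2Bb replicates 2, 3 and 1). The libraries next to the threshold of 30 were S2Bb replicate 4 at 20.6 and S2Ba replicate 3 at 40.3. Every normal salt library lay above the threshold, at 57.3 to 87.2 (median 72.8), and S2Ba replicates 3 and 1 lay between the low-Arntl and the normal salt values. These values are given as a description, since the threshold was set on them, and the other clock genes are described without a test for the same reason.

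Dbp, a bZIP activator and an output of the loop, ran the other way. In the same order its values were 196, 213, 210.1, 161, 150.2, 96.5, 30.2 and 19.2 in low-Arntl libraries and 29.1, 14.4, 5.28, 6.37, 2.53, 4.25, 5.77 and 2.83 in high-Arntl libraries. The 6 libraries lowest in Arntl all held Dbp at 96.5 or more, whereas S2Ba replicate 4 and S2Bb replicate 4 held it at 30.2 and 19.2, next to the 29.1 of S2Ba replicate 3 on the other side. On normal salt Dbp ran from 5.10 to 23.6 (median 8.90).

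Among the partners of BMAL1, Npas2 ran from 6.91 to 21.3 (median 12.7) in low-Arntl libraries and from 21.5 to 75.8 (median 47.5) in high-Arntl libraries, and Clock from 91.0 to 145 (median 124) and from 161 to 197 (median 182). Neither overlapped between the sets. Nfil3, a bZIP repressor that competes with Dbp for its sites, ran from 2.88 to 16.6 (median 6.70) in low-Arntl libraries and from 12.3 to 53.2 (median 35.9) in high-Arntl libraries. The opposite order held for Per3, a period gene, at 43.6 to 147 (median 91.4) in low-Arntl libraries and 7.92 to 25.9 (median 12.5) in high-Arntl libraries, and for Tef, a bZIP factor related to Dbp, at 95.7 to 231 (median 166) and 27 to 71.2 (median 34.9). Of the 24 clock genes above the filter, only Per3 and Tef were higher in every low-Arntl library than in any high-Arntl library. Only Arntl, Npas2 and Clock were lower in this way, Arntl by the threshold itself. Outside the clock list, 16 of 13348 tested genes were higher and 26 lower in this way.

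**Figure D1:**
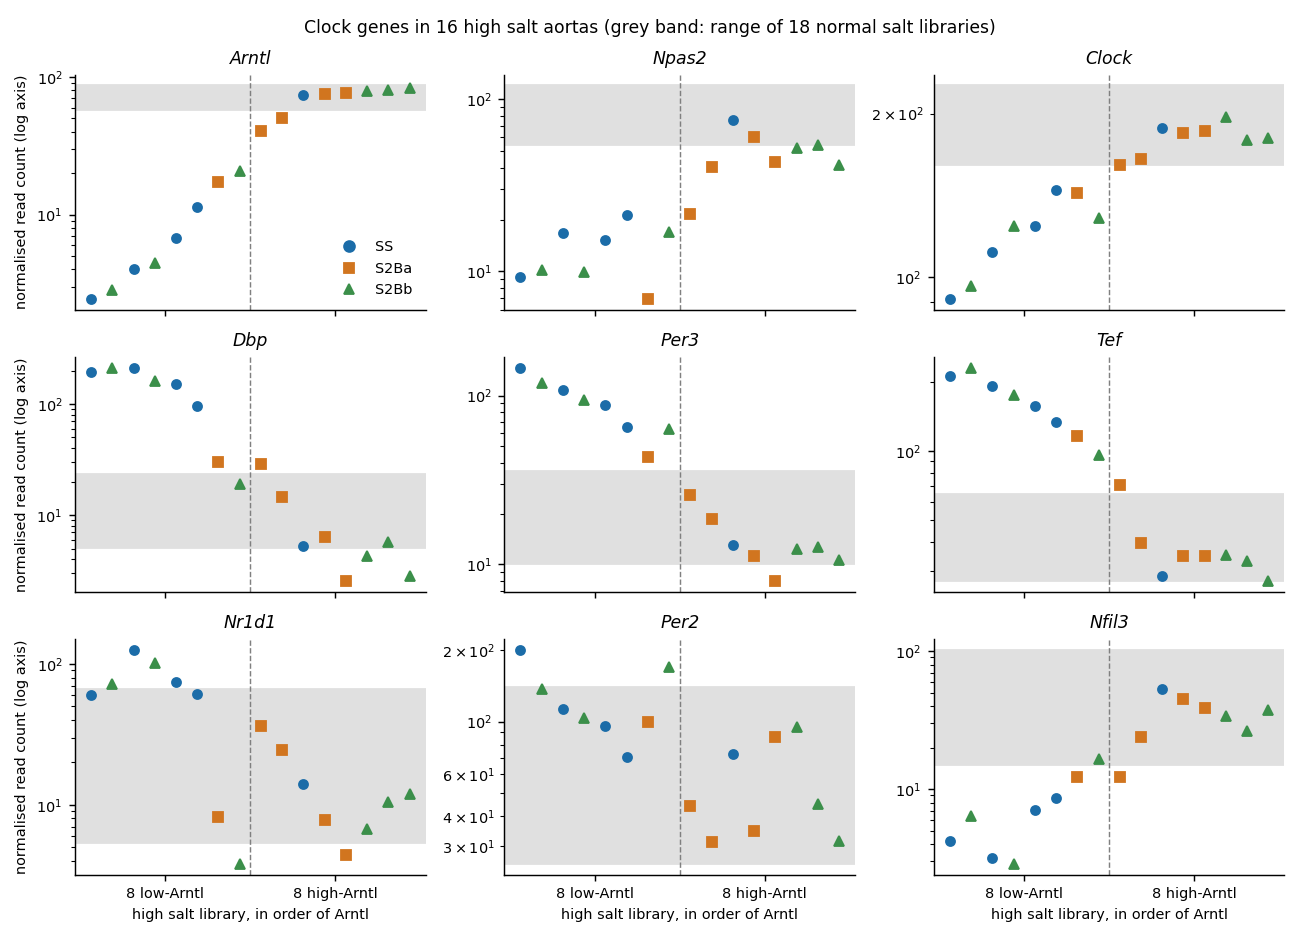
Normalised read counts (log axis) of 9 clock genes in the 16 high salt libraries, placed from left to right by their Arntl value, with the threshold as a dashed line. Circles are SS, squares S2Ba and triangles S2Bb, and the grey band spans the 18 normal salt libraries. Per3 and Tef fall along the order of Arntl while Nr1d1 is low in the 2 low-Arntl libraries nearest the threshold.

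The low-Arntl libraries were not at 1 state of the clock. Nr1d1, the receptor that represses Arntl, stood at 60.4 to 126 in the 6 libraries lowest in Arntl, but at 8.16 in S2Ba replicate 4 and 3.80 in S2Bb replicate 4, against 4.38 to 36.4 (median 11.2) in high-Arntl libraries. Ciart, a repressor of BMAL1, stood at 0.666 and 0.89 in the same 2 libraries and at 3.24 to 14 in the other 6. Per2, a period gene, was at 100.0 and 170.1 in these 2 libraries, above the median of 44.5 in high-Arntl libraries. So these 2 libraries had low Arntl, high Per2 and Per3, and low Nr1d1 and Ciart, a combination that none of the other 6 low-Arntl libraries had. The count of differing genes and each named gene were also computed without them, as given below. The high-Arntl libraries were not alike either. S2Ba replicates 3 and 1 held Nr1d1 at 36.4 and 24.3, and the other high-Arntl libraries at 4.38 to 13.9. Nr1d2 stood at 72.6 and 49.1 in S2Ba replicates 3 and 1 and at 13.9 to 28.2 in the others.

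Not all clock list genes separated the sets. Csnk1d, a kinase of the period proteins, averaged 90.9 ± 9.43 in low-Arntl libraries and 90.2 ± 5.14 in high-Arntl libraries (SD, n = 8 each). Cry1, which peaks later than Dbp, ran from 2.64 to 14 (median 5.43) in low-Arntl libraries and from 2.51 to 17.3 (median 8.37) in high-Arntl libraries, with the highest low-Arntl values in SS replicate 2, S2Bb replicate 4 and S2Ba replicate 4.

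Strain was not balanced over the sets, and neither were the numbers in the sample titles, whose meaning the labels do not give. Grouping consecutive numbers within a strain, together with S2Ba replicates 5 and 6, whose numbers are 2 apart, gives 11 runs, of which 4 hold more than 1 library, and every run lies on 1 side, 5 of them low in Arntl and 6 high. Whether such a run or the state of the clock goes with a difference cannot be told apart. With the libraries of each run averaged into 1 sample, 14 genes outside the clock list were called, all of them among the 70 described next, and 20 of 34 named genes were lost.

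Outside the clock list, 70 of 13348 tested genes (0.524%) differed between low-Arntl and high-Arntl libraries at an adjusted p under 0.05 (called genes), 33 of them higher (0.247%) and 37 lower (0.277%) in the low-Arntl set. The test was limma on log2(value + 0.5) with strain as a covariate, with Benjamini-Hochberg adjustment over these genes and the 24 clock genes. Arntl, which set the split, is thus part of the adjustment, and 9 of the 24 clock genes fell under 0.05. This lowers the adjusted p of the other genes, and the calls closest to 0.05 rest on it. They run from Wsb1 (adjusted p = 0.0436, limma) to Mob2 (adjusted p = 0.0497, limma), with Csf1 among them. These calls are kept in the 70 and in the counts below. At least 2-fold differences were found for 10 of the higher and 6 of the lower genes, and the median size of the difference over the 70 was 0.69 on the log2 scale. The pseudocount makes the log2 differences of low genes too small. Without adjustment 1366 genes (10.2%) had p under 0.05. The 8 low-Arntl and 8 high-Arntl values did not overlap for 42 tested genes (0.315%), of which 26 were among the 70. Leaving out 1 library gave between 25 and 99 called genes. The count was 25 without S2Bb replicate 6, 26 without SS replicate 1, 31 without S2Bb replicate 2, 33 without S2Bb replicate 5, 39 without S2Bb replicate 3 and 45 without S2Ba replicate 4.

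**Figure D2:**
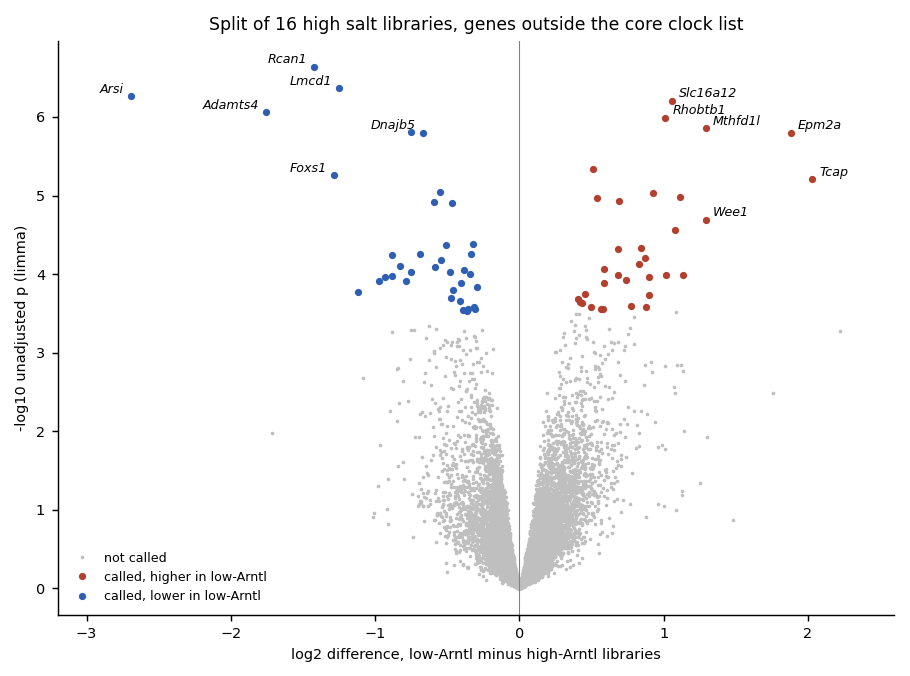
Difference between the 8 low-Arntl and 8 high-Arntl high salt libraries for 13348 genes outside the clock list. The x axis is the log2 difference (low-Arntl minus high-Arntl) and the y axis the negative log10 of the unadjusted limma p, with the 33 higher and 37 lower called genes in colour and 12 named. Arsi has the largest difference, at -2.69.

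The genes lower in low-Arntl libraries were led by Rcan1, Lmcd1, Arsi, Adamts4, Dnajb5 and Rasl11b. Rcan1, an inhibitor of the calcium-dependent phosphatase calcineurin and itself a calcineurin target, ran from 100.0 to 227 (median 163) in low-Arntl libraries and from 379 to 545 (median 448) in high-Arntl libraries. Every low-Arntl library was below every high-Arntl library. The log2 difference was -1.42 ± 0.17 (SE, adjusted p = 0.000768, limma), so that Rcan1 was 2.68-fold lower in the low-Arntl set. Lmcd1, a LIM domain protein that binds GATA6, ran from 244 to 466.1 (median 339.6) in low-Arntl libraries and from 502 to 967 (median 712) in high-Arntl libraries, again without overlap (-1.25 ± 0.16, adjusted p = 0.00115, limma).

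Arsi, a member of the arylsulfatase family, had the largest difference of the 70 genes. It ran from 6.61 to 25.1 (median 13.9) in low-Arntl libraries and from 32.9 to 139 (median 96.3) in high-Arntl libraries, a log2 difference of -2.69 ± 0.34 (adjusted p = 0.00118, limma) with no overlap. Its lowest high-Arntl value, 32.9, was in S2Ba replicate 3, the high-Arntl library with the least Arntl. Adamts4, a protease that cleaves aggrecan and versican in the matrix, ran from 0.163 to 1.21 (median 0.669) in low-Arntl libraries and from 1.38 to 4.09 (median 3.25) in high-Arntl libraries (-1.76 ± 0.23, adjusted p = 0.00145, limma). These values rest on 2 to 15 reads per low-Arntl library and 17 to 52 reads per high-Arntl library, and they did not overlap. Lox, which crosslinks collagen and elastin, ran from 472 to 1131 (median 867) in low-Arntl libraries and from 676 to 1552 (median 1232) in high-Arntl libraries (-0.78 ± 0.16, adjusted p = 0.0288, limma). S2Ba replicate 3 held the lowest high-Arntl value. S2Bb replicates 3 and 1, at 1061 and 1110, also lay below the 1131 of SS replicate 6 in the low-Arntl set.

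Dnajb5, a co-chaperone of the Hsp40 family, ran from 51.7 to 75.6 (median 61.6) in low-Arntl libraries and from 84.4 to 116 (median 94.3) in high-Arntl libraries, with no overlap (-0.67 ± 0.09, adjusted p = 0.00152, limma). Foxs1, a forkhead transcription factor, ran from 16.2 to 44.0 (median 31.8) and from 58.5 to 98.6 (median 75.5) in the same order of sets (-1.29, adjusted p = 0.00461, limma), and these values did not overlap either. Rasl11b, a Ras-like small GTPase, ran from 14.3 to 22.7 (median 18.3) in low-Arntl libraries and from 24.4 to 34.4 (median 30.1) in high-Arntl libraries (-0.75, adjusted p = 0.00152, limma). Arhgap42, a GTPase-activating protein of smooth muscle that lowers vascular tone in mice, ran from 31.6 to 42.0 (median 36.4) and from 39.3 to 58.3 (median 47.7) in the same order of sets (-0.46, adjusted p = 0.00674, limma). The values of Rasl11b did not overlap, and those of Arhgap42 did.

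The other named genes of lower level in low-Arntl libraries had log2 differences between -0.89 and -0.32, with adjusted p between 0.00648 and 0.026 (limma). Arpc5l, a subunit of the actin-nucleating Arp2/3 complex, had -0.55 (adjusted p = 0.00648, limma), and Efnb1, an ephrin ligand of Eph receptors, had -0.59 with no overlap (adjusted p = 0.00674, limma). Adam17, the protease that sheds TNF and other membrane proteins, had -0.32, Grip2, a PDZ scaffold protein, -0.69, and Akap2, an anchor of protein kinase A, -0.34. The values of Akap2 did not overlap between the sets, and those of Adam17 and Grip2 did. Adcyap1r1, the receptor of the vasodilator peptide PACAP, ran from 0.987 to 2.91 (median 1.63) in low-Arntl libraries and from 1.57 to 6.90 (median 5.74) in high-Arntl libraries. These medians are not adjusted for strain, and the S2Ba libraries of the high-Arntl set held 6.20 to 6.90. With strain as a covariate the log2 difference was -0.89, or 1.85-fold lower in the low-Arntl set (adjusted p = 0.0209, limma). The value of the lone SS library on the high-Arntl side, 1.57, lay among the low-Arntl values, and the estimate within SS was -0.09. Thra, thyroid hormone receptor alpha, ran from 96.6 to 151 (median 134) in low-Arntl libraries and from 126 to 191 (median 168) in high-Arntl libraries (-0.51, adjusted p = 0.018, limma). In the RefSeq gene table the ends of Thra and Nr1d1 overlap. The sources used here do not state whether counting used strand, so reads from the overlap may be split between them. From the immediate early list, Ier5 had -0.83 (adjusted p = 0.0258, limma), and from the list of clock targets in other tissues, Leo1, a subunit of the PAF1 elongation complex, had -0.58 (adjusted p = 0.026, limma).

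The genes higher in low-Arntl libraries were led by Slc16a12, Rhobtb1, Epm2a, Mthfd1l and Mettl7a. All 14 adipocyte markers also had positive differences, with 0 called in limma, and their values are given with the other cell type markers. Epm2a, which encodes the glycogen phosphatase laforin, ran from 4.21 to 11.9 (median 7.80) in low-Arntl libraries and from 0.786 to 3.0 (median 1.46) in high-Arntl libraries. The sets did not overlap, and the log2 difference was 1.88 ± 0.26 (SE, adjusted p = 0.00152, limma). Within the low-Arntl set the lowest values, 4.21 and 4.75, were those of S2Bb replicate 4 and S2Ba replicate 4. Mthfd1l, a mitochondrial enzyme of folate metabolism, ran from 8.27 to 19.4 (median 11.4) in low-Arntl libraries and from 2.83 to 5.67 (median 4.68) in high-Arntl libraries, again without overlap (1.29 ± 0.18, adjusted p = 0.00152, limma). On normal salt Mthfd1l ran from 2.24 to 5.15 (median 3.29), below every low-Arntl library.

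Slc16a12, a carrier of the monocarboxylate transporter family, ran from 3.32 to 5.40 (median 4.60) in low-Arntl libraries and from 1.35 to 2.64 (median 1.64) in high-Arntl libraries (1.06 ± 0.14, adjusted p = 0.00118, limma). Rhobtb1, an adaptor of the cullin 3 ubiquitin ligase that acts in smooth muscle relaxation in mice, ran from 20.5 to 40.1 (median 29.3) and from 12.4 to 19.4 (median 15.4) in the same order of sets (1.01 ± 0.14, adjusted p = 0.00147, limma). Neither gene overlapped between the sets. Wee1, the kinase that holds Cdk1 inactive and a clock target in mouse liver, ran from 33.3 to 97.3 (median 50.1) in low-Arntl libraries and from 18.8 to 34.2 (median 21.1) in high-Arntl libraries, with 1 low-Arntl library, SS replicate 6, inside the high-Arntl range (1.29, adjusted p = 0.0103, limma).

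Tcap, the titin cap protein of striated muscle, had the largest difference among the higher genes. It ran from 1.25 to 5.18 (median 3.15) in low-Arntl libraries and from 0.0832 to 1.30 (median 0.224) in high-Arntl libraries (2.03 ± 0.31, adjusted p = 0.00489, limma). That is 15 to 64 reads per low-Arntl library and 1 to 16 reads per high-Arntl library, so the ratio is loosely fixed by counting. The sets overlapped by S2Ba replicate 4, the lowest of the low-Arntl set, and S2Ba replicate 3, the highest of the high-Arntl set. The 6 measured markers of skeletal and cardiac muscle summed to 59.2 to 72.1 in low-Arntl libraries (median 61.8) and to 61.4 to 110.6 in high-Arntl libraries (median 69.6), and 3 of the 6 had a positive difference. The part of such muscle in the result was not tested.

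**Figure D3:**
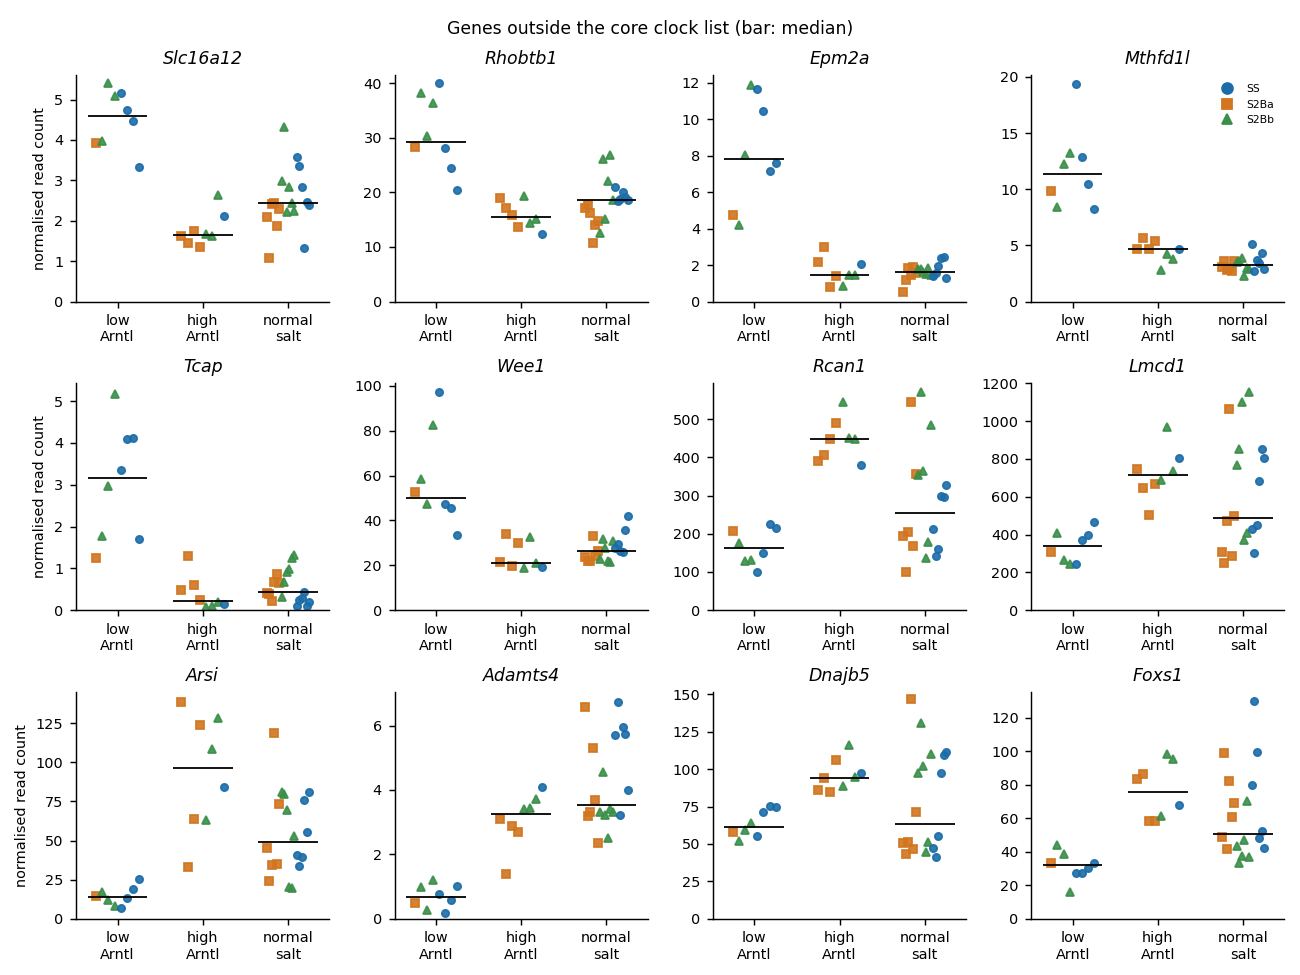
Normalised read counts of 6 genes higher (first 6 panels) and 6 genes lower in low-Arntl libraries, for the 8 low-Arntl and 8 high-Arntl high salt libraries and the 18 normal salt libraries. Each point is a library, coloured and shaped by strain, and the bar is the median. The normal salt libraries of Rcan1 and Lmcd1 overlap both high salt sets, while those of Epm2a lie with the high-Arntl libraries.

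The remaining named genes of higher level in low-Arntl libraries had log2 differences between 0.43 and 1.11, with adjusted p between 0.00411 and 0.0455 (limma). Fmo1, a flavin-containing monooxygenase, ran from 12.4 to 41.0 (median 25.4) in low-Arntl libraries and from 8.5 to 25.8 (median 14) in high-Arntl libraries (adjusted p = 0.00674, limma). Pik3ip1, an inhibitor of PI3 kinase, had 1.08 (adjusted p = 0.0129, limma), with estimates of 1.57 in SS and 0.52 in S2Ba. Herpud1, a component of the machinery that removes misfolded proteins from the endoplasmic reticulum, had 0.54 without overlap (adjusted p = 0.00674, limma). Rapgef5, an exchange factor for Rap GTPases, had 0.69, Arrdc3, an alpha-arrestin, 0.68, and Tnfsf15, a cytokine of the TNF family, 0.83. Each of these 3 was higher in all 8 low-Arntl libraries than in any high-Arntl library. Fam13a, a protein with a GTPase-activating domain, had 0.93, Mettl7a, a methyltransferase of the endoplasmic reticulum and lipid droplets, 0.51, and Cys1, a protein of the primary cilium, 0.85. The values of Fam13a and Mettl7a did not overlap between the sets either, and those of Cys1 did. Csf1, the growth factor of macrophages, had 0.43 and an adjusted p of 0.0455 in limma, a call that rests on the clock genes in the adjustment.

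The E-box CACGTG was searched on both strands in promoter windows from RefSeq (build GRCr8), each from 250 bases before to 50 after the start of the gene. Windows were matched for 26 of the 33 higher genes, 30 of the 37 lower genes, 20 of the 24 clock genes and 10038 of the 13348 tested genes. The E-box was found in 4 of the 26 higher genes (15.4%: Epm2a, Rhobtb1, Shmt1 and Slc1a7), in 0 of the 30 lower genes, in 4 of the 20 clock genes (20%: Bhlhe40, Bhlhe41, Ciart and Tef) and in 930 windows of all tested genes (9.26%). Shmt1 and Slc1a7 (adjusted p = 0.0479 and 0.0483, limma) are among the calls that rest on the clock genes in the adjustment. A match is a description of the letters and not a site in use, and windows without one may hold other forms of the element. The windows of Rhobtb1 and Epm2a are shown because they are the named genes outside the clock list that hold an E-box, beside 4 clock genes, with E-boxes in capitals and each on the strand of its gene. They lie at chr20:19402008-19402307 (minus strand, Rhobtb1), chr1:7547119-7547418 (plus, Epm2a), chr2:186112197-186112496 (minus, Ciart), chr7:115206577-115206876 (plus, Tef), chr4:143174200-143174499 (plus, Bhlhe40) and chr4:180569306-180569605 (minus, Bhlhe41).
Rhobtb1: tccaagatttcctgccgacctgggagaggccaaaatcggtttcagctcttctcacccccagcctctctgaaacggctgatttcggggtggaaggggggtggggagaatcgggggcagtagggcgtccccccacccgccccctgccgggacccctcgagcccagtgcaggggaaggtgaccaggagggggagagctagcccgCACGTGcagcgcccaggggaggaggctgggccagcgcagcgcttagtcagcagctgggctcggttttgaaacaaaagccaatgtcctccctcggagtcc
Epm2a: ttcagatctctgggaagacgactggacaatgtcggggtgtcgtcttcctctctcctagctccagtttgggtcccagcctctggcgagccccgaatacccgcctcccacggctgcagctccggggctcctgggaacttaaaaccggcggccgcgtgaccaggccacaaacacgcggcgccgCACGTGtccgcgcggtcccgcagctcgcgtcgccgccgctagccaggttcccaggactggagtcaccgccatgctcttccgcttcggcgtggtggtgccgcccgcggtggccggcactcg
Ciart: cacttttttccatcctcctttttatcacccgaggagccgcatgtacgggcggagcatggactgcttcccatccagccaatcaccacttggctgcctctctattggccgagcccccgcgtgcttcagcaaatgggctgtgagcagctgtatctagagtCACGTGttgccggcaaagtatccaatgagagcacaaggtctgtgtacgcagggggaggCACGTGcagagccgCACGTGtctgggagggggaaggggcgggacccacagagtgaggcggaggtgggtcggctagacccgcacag
Tef: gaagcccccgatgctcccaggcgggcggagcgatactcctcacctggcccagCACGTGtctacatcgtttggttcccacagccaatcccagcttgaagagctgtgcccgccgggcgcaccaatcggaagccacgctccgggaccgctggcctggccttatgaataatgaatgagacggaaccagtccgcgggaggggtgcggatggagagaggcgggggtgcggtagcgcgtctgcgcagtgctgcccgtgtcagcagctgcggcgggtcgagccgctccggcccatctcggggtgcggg
Bhlhe40: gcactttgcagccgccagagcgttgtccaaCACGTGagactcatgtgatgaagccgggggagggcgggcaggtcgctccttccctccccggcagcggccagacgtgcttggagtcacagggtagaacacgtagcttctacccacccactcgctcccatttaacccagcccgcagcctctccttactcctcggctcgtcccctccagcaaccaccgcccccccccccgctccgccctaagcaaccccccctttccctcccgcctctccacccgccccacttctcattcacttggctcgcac
Bhlhe41: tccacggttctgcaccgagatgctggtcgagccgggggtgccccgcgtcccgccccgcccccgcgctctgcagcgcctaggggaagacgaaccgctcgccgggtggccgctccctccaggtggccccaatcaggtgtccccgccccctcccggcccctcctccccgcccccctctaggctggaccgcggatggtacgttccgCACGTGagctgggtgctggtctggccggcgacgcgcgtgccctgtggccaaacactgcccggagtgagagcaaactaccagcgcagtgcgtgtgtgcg

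In these windows the E-box of Rhobtb1 begins 49 bases before the start site and that of Epm2a 70 bases before it. Ciart holds 3 E-boxes, which begin 93, 35 and 21 bases before the start site. Those of Bhlhe41, Tef and Bhlhe40 begin 48, 198 and 220 bases before it. Bhlhe40 and Bhlhe41 encode repressors that bind E-boxes themselves. Bhlhe41 ran from 2.08 to 13.3 (median 7.14) in low-Arntl libraries and from 1.08 to 2.44 (median 2.23) in high-Arntl libraries, and Bhlhe40 from 15.7 to 43.0 (median 31.4) and from 9.87 to 33.6 (median 16.1) in the same order of sets. The D-box of Dbp, Tef and Nfil3, spelled TTATGTAA or TTACGTAA on either strand, was found in 1 of the 26 higher genes (Nat8f3, an acetyltransferase family member), in 0 of the 30 lower genes and in 0.598% of all tested genes. The element of ROR and NR1D receptors, spelled TAGGTCA or TGGGTCA, was found in 1 higher gene (Ppl, the desmosomal protein periplakin), 1 lower gene (Leo1) and 5.04% of all tested genes. Arntl held this element in its window, and Per2 held a D-box.

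The estimate of each of the 70 genes had the same sign within SS, S2Ba and S2Bb. The same held for 27% of all tested genes, and the 70 were called on the same libraries. S2Bb, with 3 low-Arntl and 3 high-Arntl libraries, is the strain where the split can best be read within 1 strain. In a fit of all 16 libraries with a split for each strain, 20 genes were called within S2Bb (0.15% of tested genes), 10 higher and 10 lower, with 1563 at an unadjusted p under 0.05. Of the 34 named genes 13 were among them. Rcan1 had -1.73 (adjusted p = 0.0104, limma), Tcap 2.52 (adjusted p = 0.0204, limma), Epm2a 2.20 (adjusted p = 0.0252, limma) and Arsi -2.97 (adjusted p = 0.0308, limma). That fit takes the spread from all 16 libraries. With the S2Bb libraries fitted alone, 32 of the 34 named genes were not called, Tcap and Epm2a among them, and Rcan1 and Arsi were. In the fit with a split for each strain, the count within S2Bb was 0 without S2Bb replicate 1, 3, 5 or 6. It was 6 without S2Bb replicate 2, 12 without SS replicate 5 and 13 without S2Ba replicate 1. It was 33 without S2Bb replicate 4 and 37 without S2Ba replicate 5. In the same limma fit 0 genes (0%) were called within SS, where 1 library was high in Arntl, and 0 within S2Ba, where 1 was low. Unadjusted p was under 0.05 for 849 genes in SS and 796 in S2Ba, and 1 gene was called in SS without S2Bb replicate 4. In limma 0 genes were called for a difference of the split between strains, with 1017 at an unadjusted p under 0.05 between S2Bb and SS, 751 between S2Bb and S2Ba and 746 between S2Ba and SS. No other tool was run for these contrasts.

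**Figure D4:**
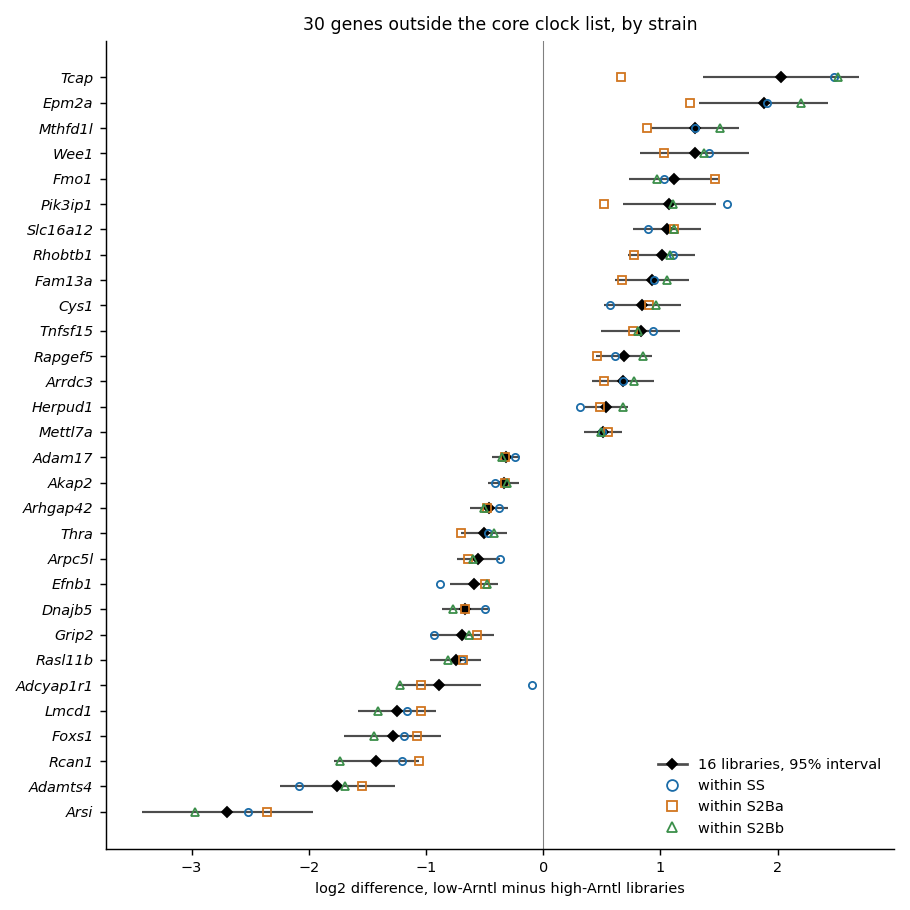
Log2 differences (low-Arntl minus high-Arntl libraries) of the 15 leading genes in each direction. Diamonds and lines are the estimate over 16 libraries with its 95% interval, and open circles, squares and triangles are the estimates within SS (4 against 1 library), S2Ba (1 against 4) and S2Bb (3 against 3). All 3 strain estimates lie on the side of the pooled one, which was a condition in choosing these genes. That of Adcyap1r1 in SS is -0.09.

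The call of 19 of the 34 named genes held whichever of the 16 libraries was left out, among them Rcan1, Lmcd1, Arsi, Adamts4, Dnajb5, Foxs1, Epm2a, Mthfd1l, Slc16a12, Rhobtb1, Tcap and Herpud1. Without SS replicate 1, the only SS library with high Arntl, 12 named genes were no longer called: Akap2, Arrdc3, Csf1, Efnb1, Grip2, Ier5, Leo1, Lox, Pik3ip1, Thra, Tnfsf15 and Wee1. Without S2Bb replicate 6 those no longer called were Adam17, Adcyap1r1, Akap2, Arrdc3, Csf1, Cys1, Leo1, Lox and Tnfsf15, and without S2Ba replicate 4 Adam17, Adcyap1r1, Akap2, Cys1, Ier5, Leo1, Lox, Thra and Tnfsf15. Without S2Bb replicate 2 they were Adcyap1r1, Akap2, Csf1, Cys1, Grip2, Ier5, Leo1 and Lox, without S2Bb replicate 3 Adcyap1r1, Csf1, Cys1, Leo1 and Tnfsf15, without S2Bb replicate 5 Adcyap1r1, Csf1 and Leo1, and without S2Bb replicate 4 Csf1 and Lox. Csf1 was also lost without S2Ba replicate 6, S2Bb replicate 1 or SS replicate 2, 4 or 5. Without both S2Ba replicate 4 and S2Bb replicate 4, the libraries low in Nr1d1, 65 genes were called, of which 33 were among the 70, and 13 named genes were lost, including Arhgap42, Arpc5l and Fmo1.

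The place of the threshold mattered. At an Arntl threshold of 10, which leaves 5 low-Arntl libraries (3 SS and 2 S2Bb), 0 genes were called in limma and in edgeR, with 1046 at an unadjusted p under 0.05. At a threshold of 50, with 9 low-Arntl libraries, 83 genes were called, and 41 of them were among the 70. When the libraries were divided by Dbp instead, at a value of 24.9 in the middle of its log2 range, 2 libraries changed sides, 32 genes were called and 13 of these were among the 70. Of the named genes Arsi, Adamts4, Epm2a, Tcap, Pik3ip1, Leo1 and Adam17 were still called by Dbp.

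Of 28 genes known to be under clock control in other tissues, mostly mouse liver, 4 were called higher and 1 lower in low-Arntl libraries, with a median log2 difference of 0.27. Over all 13348 tested genes 33 were called higher and 37 lower (0.524% together), and the median was 0.01. The 4 were Wee1, Mthfd1l, Herpud1 and Nampt, and the 1 was Leo1. The same 5 were called by edgeR, and DESeq2 added Pfkfb3. Nampt, the rate-limiting enzyme of NAD salvage, ran from 87.5 to 123 (median 100.4) in low-Arntl libraries and from 65.1 to 90.2 (median 79.7) in high-Arntl libraries (0.40, adjusted p = 0.0424, limma). Other members did not pass the test. Pfkfb3, a regulator of glycolysis, had a median of 82.9 in low-Arntl libraries and 51.2 in high-Arntl libraries (adjusted p = 0.0815, limma), and Klf15, a Kruppel-like factor, had 42.6 and 21.9 in the same order of sets (adjusted p = 0.361, limma). Usp2, a deubiquitinase with a strong rhythm in mouse tissues, had medians of 7.31 and 6.19 (adjusted p = 0.918, limma). At an unadjusted p under 0.05, 13 of the 28 members were higher and 2 lower, beside 760 higher and 606 lower of all 13348 tested genes.

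Of 24 heat shock and cold-inducible genes only Dnajb5 was called, but 20 had a negative difference, 12 of them at an unadjusted p under 0.05, and the median was -0.40. Of all 13348 tested genes 6222 had a negative difference, 606 of them at an unadjusted p under 0.05. Their summed level ran from 1758 to 2568 in low-Arntl libraries (median 1941) and from 1857 to 3588 in high-Arntl libraries (median 2638). Hsph1, an Hsp110 chaperone, had a median of 94.4 in low-Arntl libraries and 184 in high-Arntl libraries without being called (adjusted p = 0.249, limma). Hsp90ab1, the constitutive HSP90, had 578 and 860.1 in the same order of sets (adjusted p = 0.332, limma). Rbm3, a cold-inducible RNA-binding protein, went the other way with 162 and 121 (adjusted p = 0.34, limma). The part of the heat shock genes in the other results was not tested. Of 25 genes of endoplasmic reticulum chaperones and stress, Herpud1 was called higher and 18 had a negative difference, with a median of -0.14. DESeq2 also called Calr and Hsp90b1, both endoplasmic reticulum chaperones, as lower.

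Of 26 smooth muscle contractile genes 0 were called in limma, edgeR or DESeq2, with a median of -0.02, and 0 were higher and 2 lower at an unadjusted p under 0.05. Of all 13348 tested genes 0.524% were called in limma, with 760 higher and 606 lower at an unadjusted p under 0.05. In lists this short, 0 calls is near that share and says little about the list. Of 30 potassium and calcium channel genes 0 were called in limma and edgeR (median -0.04, 3 higher and 2 lower unadjusted), and DESeq2 called Kcnk3, a tandem pore potassium channel, higher. Of 24 genes of adrenergic, nitric oxide and cyclic nucleotide signalling 0 were called with any of these tools (median 0.12, 4 higher and 1 lower unadjusted). In the extracellular matrix list Adamts4 and Lox were called lower and 0 of 38 higher, with a median of -0.04, also by edgeR, and DESeq2 added the collagenase Mmp14 as lower. Col3a1, fibrillar collagen III, had medians of 10399 in low-Arntl libraries and 9860.3 in high-Arntl libraries (adjusted p = 0.888, limma). Eln, elastin, had 5964 and 6769 in the same order of sets (adjusted p = 0.464, limma).

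Tsc22d3 and Fkbp5, which glucocorticoids induce in many tissues, did not pass the test. Tsc22d3 had medians of 78.4 in low-Arntl libraries and 41.5 in high-Arntl libraries (adjusted p = 0.153, limma), and Fkbp5 had 24.9 and 10.1 in the same order of sets (adjusted p = 0.283, limma). Of 25 immediate early genes Ier5 was called lower (median -0.23), of 26 inflammatory genes Csf1 was called higher (median 0.11), and of 30 genes of insulin and mTOR signalling Pik3ip1 was called higher (median 0.08). Over all 13348 tested genes 0.524% were called in limma. In the insulin and mTOR list DESeq2 called 2 genes higher and 1 lower, adding Sesn3 as higher and Irs3 as lower. In the other pathway lists 0 genes were called in limma and edgeR. Their numbers tested and median log2 differences were 13 and 0.07 for glucocorticoid response, 22 and 0.02 for sodium and chloride transport, and 15 and 0.07 for renin-angiotensin and endothelin. The cell cycle list had 28 and -0.23, oxidant and antioxidant genes 24 and 0.05, oxidative phosphorylation 22 and 0.03, and glycolysis and glucose uptake 23 and 0.01. Lipid metabolism had 27 and 0.07, TGF-beta, BMP and Wnt signalling 29 and -0.06, and interferon response 24 and 0.20. At an unadjusted p under 0.05 these lists had between 0 and 8 higher genes, with 8 in the interferon list, and between 0 and 2 lower genes. Of all 13348 tested genes 760 were higher and 606 lower at that level. DESeq2 called higher Ifi44 and Ifit3 of the interferon list, Fzd4 of the Wnt genes, Cat of the antioxidant genes and Pfkfb3 of the glycolytic genes.

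**Figure D5:**
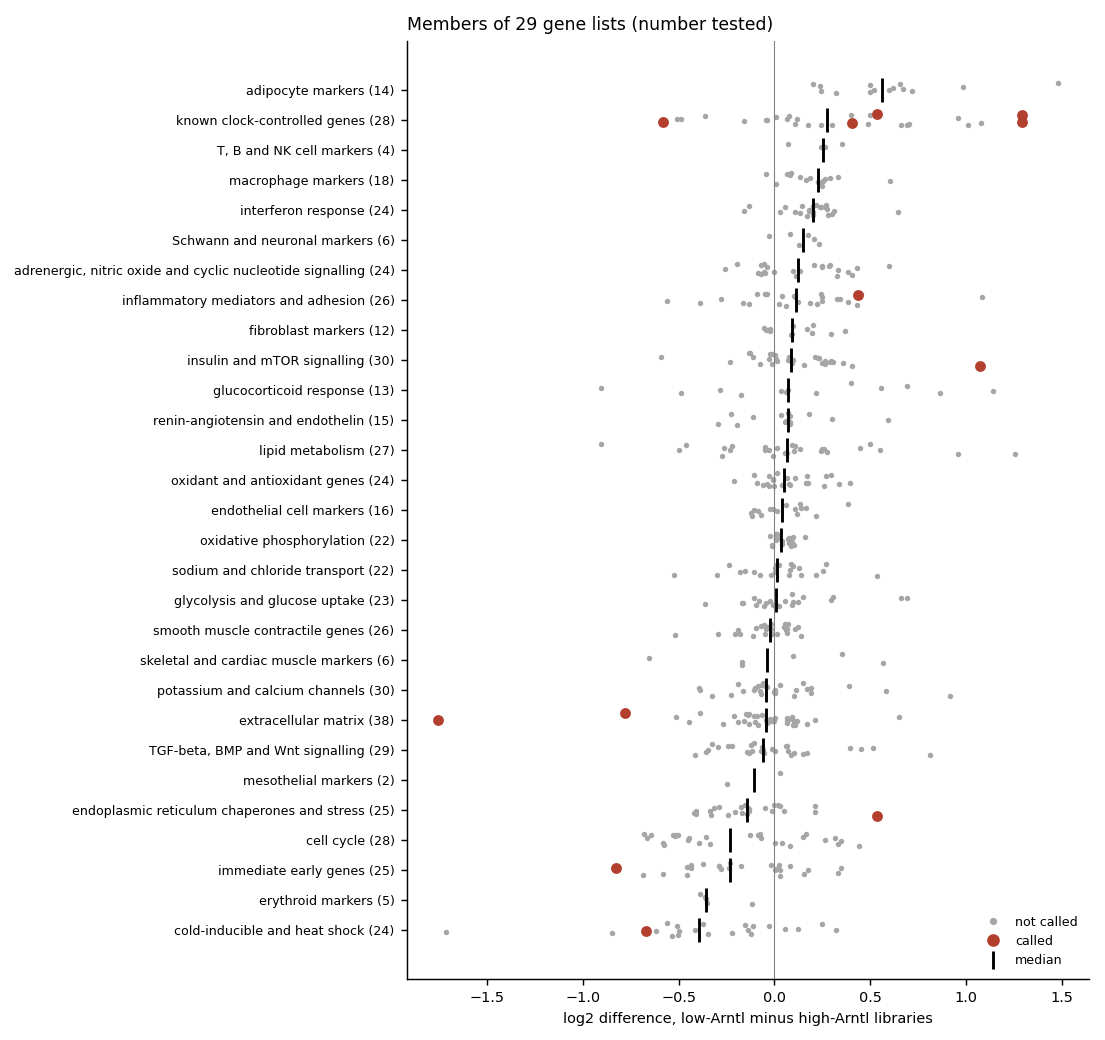
Log2 differences (low-Arntl minus high-Arntl libraries) of the tested members of 29 gene lists, each point a gene, with called genes in red and the list median as a bar. Lists are in order of their median, from adipocyte markers at 0.56 to heat shock and cold-inducible genes at -0.40.

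Markers of other cell types were read beside these genes. In limma, edgeR and DESeq2 0 of 14 adipocyte markers were called, but all 14 had a positive difference, with a median of 0.56, beside 7126 positive differences among the 13348 tested genes. Their summed level ran from 312 to 724 in low-Arntl libraries (median 372) and from 258 to 472 in high-Arntl libraries (median 332). Adipoq, the adipocyte hormone adiponectin, had medians of 36 and 22.8 in the same order of sets, and 69.7 on normal salt. The aorta lies in fat. The part of such cells in the higher genes was not tested. Of 18 macrophage markers 17 had a positive difference (median 0.23), with summed levels of 614 to 1743 in low-Arntl libraries (median 937) and 692 to 1675 in high-Arntl libraries (median 879). Medians were 0.04 for 16 endothelial markers, 0.09 for 12 fibroblast markers, 0.15 for 6 Schwann and neuronal markers, 0.25 for 4 markers of T, B and NK cells, -0.36 for 5 erythroid markers, -0.04 for the 6 striated muscle markers and -0.11 for 2 mesothelial markers, with 0 called in each by limma and edgeR. At an unadjusted p under 0.05 there were 3 higher adipocyte markers and 1 lower striated muscle marker, Acta1, which DESeq2 called.

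Normal salt libraries gave a check in samples that the choice of the 70 genes did not use. There Arntl varied over only 0.60 on the log2 scale. With a slope on log2 Arntl and strain as a covariate, limma called 0 of 13348 genes (0%) and edgeR 0, and the unadjusted limma p was under 0.05 for 626 genes (4.69%). Of the 70 genes 26 (37.1%) had a slope in the direction of the high salt split, against 44.7% of all tested genes. At an unadjusted p under 0.05, 1 of the 70 matched and 3 went the other way. The range of Arntl on normal salt is too narrow to read much from a slope that misses the threshold.

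All normal salt libraries had Arntl above the threshold. For most of the 70 genes their median lay between the medians of the sets. The 70 were chosen because the sets lie apart, so a median between them can follow from that choice. Each library was scored by how many of the 70 genes lay on the low-Arntl side of the midpoint between the medians of the sets. The number was 54 to 70 in low-Arntl libraries (median 64) and 1 to 18 in high-Arntl libraries (median 4), which the choice of genes fixes, and 18 to 41 in normal salt libraries (median 31). In the high-Arntl set the 18 belonged to S2Ba replicate 3 and the next number was 10. The normal salt median lay between the medians of the sets for 45 genes, beyond the high-Arntl median for 15 and beyond the low-Arntl median for 10. The shares over all tested genes were not computed. Rcan1 ran from 99.4 to 571 (median 254) on normal salt, Lmcd1 from 250.1 to 1155 (median 486) and Dnajb5 from 41.4 to 147 (median 63.5), and each overlapped both high salt sets. Epm2a ran from 0.505 to 2.46 (median 1.61) and Tcap from 0.091 to 1.31 (median 0.433) on normal salt, within or near the high-Arntl range of each. Wee1 ran from 21.5 to 41.9 (median 26.4) on normal salt, and Arsi from 19.5 to 119 (median 48.9).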

How the data were processed

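Total RNA of rat thoracic descending aorta was sequenced on an Illumina HiSeq after TruSeq total RNA preparation, per the labels' protocols. The deposited values are a signal, reads per gene divided by a size factor of the library. Per the submitters' processing notes the tools were STAR 2.3.1 and edgeR 3.6.8, with bcl2fastq 1.8.4, FastQC and R 3.2.3, and their roles are not stated. Genome build, annotation, counter and strand setting: not given in the sources used here. Every value was a whole multiple of 1 step per library (100% within 0.01 of a whole number), so reads were recovered, 8753735 to 15168833 per library, and used for edgeR and DESeq2 as alternatives only.

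Of 26106 genes listed, 13372 had a mean of at least 0.5 over the 16 high salt libraries, 24 of them clock list genes. Log2(value + 0.5) was fitted in limma 3.58.1 (R 4.3.3) with side and strain, with Benjamini-Hochberg adjustment over the 13372 genes. "Called" means an adjusted p under 0.05, outside the clock list. The p of a called gene states association with a split chosen from the data. Members and lists were chosen with earlier results of these data known. The steps were also tested on simulated data.

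Genes named were the clock genes with a mean of at least 1, the 15 called genes per direction with the smallest adjusted p, an informative symbol, a mean of at least 1 and 1 sign in all strains, and up to 4 called members per list. Genes outside this rule (Nampt, motif holders, genes called by DESeq2 alone and list members that did not pass the test) were chosen after their values were seen. Alternatives were pseudocounts of 0.1 and 1, no filter or a mean of 5, edgeR 4.0.16, DESeq2 1.42.0, upper quartile scaling, no strain term, continuous Arntl, thresholds of 10 and 50, a split by Dbp, depth as a covariate, all 34 libraries in 1 fit, S2Bb alone and leaving out each library. Counting error is not modelled in limma, so low genes are less certain. Motif windows came from RefSeq, build GRCr8.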

Additional observations from a re-analysis of the deposited data

Results flagged for a closer look

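Within a set of 8 libraries, 8 of 116 sets of values of named genes had a library that stood far from the others, by Dixon's criterion, which chance meets in about 1 set in 20. S2Ba replicate 3, the high-Arntl library with the least Arntl, accounted for 4 of the 8. It held 155 for Adam17, where the next lowest high-Arntl library held 187, 1.38 for Adamts4 (next 2.70) and 676 for Lox (next 1061). It also held 71.2 for Tef, where the next highest high-Arntl library held 39.6. In each case the value lay toward the low-Arntl set.

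SS replicate 1 held 1.57 for Adcyap1r1, the lowest of the high-Arntl set, where the next held 4.07. S2Ba replicate 6 held 126 for Thra, the lowest of the same set, where the next held 162. In the low-Arntl set, S2Bb replicate 4 held 15.3 for Leo1, where the next highest held 10.9, and S2Bb replicate 6 held 69.8 for Mettl7a, where the next highest held 60.1.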

How the results depend on the processing

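The 70 called genes became 38 with no filter on low values, 205 with DESeq2, 175 without the strain covariate, 195 with continuous log2 Arntl, 0 at an Arntl threshold of 10, 32 when split by Dbp, 46 with depth as a covariate and 3 in S2Bb alone. With libraries of consecutive title numbers averaged, and also S2Ba replicates 5 and 6, whose numbers are 2 apart, chosen after seeing the data, the count was 14. Of the larger counts DESeq2 shared 70 with the reported call, the fit without strain 61 and continuous Arntl 61. edgeR gave 65, and both pseudocounts 68. Leaving out 1 library gave 25 to 99 genes, 0 to 37 within S2Bb and 0 to 1 within SS. Within S2Ba, for the differences between strains and for the slope on normal salt, the count stayed at 0 in every alternative run. For the 34 named genes, 909 of 1116 combinations of gene and alternative kept the call, 207 lost it with the same direction and 0 changed direction, and 0 genes were called under every alternative, since the threshold of 10 called none. The causes of these shifts were not tested. No paired analysis was possible because the labels give no replicate numbers shared between groups. Within SS and S2Ba 1 library alone stands on 1 side and is assumed to vary like the others. Genes near the filter rest on few reads, so their values are less precise.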
